A study of Homo sapiens with 6 samples.

Results

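The genes described here make ribosomes: 50 named genes of RNA polymerase I, of the small nucleolar ribonucleoproteins (snoRNPs) and of the assembly line for both ribosomal subunits. They were chosen by symbol and function, with earlier results of these data known. All 50 were matched in GENCODE 29 to a row of the deposited files, which list 25969 genes. Every one of the 50 passed the filter on low values (a mean of at least 1 over the 6 libraries) and is among the 20927 genes tested. The series compared human prostate cancer cells labelled LNCaP, an established line, that were transfected with a vector overexpressing VIM-AS1 (3 libraries) with cells, labelled WT, that were transfected with the pcDNA3.1 vector (3 libraries). VIM-AS1 is a noncoding transcript from the strand opposite vimentin. The input was 1.3 µg of total RNA for every library, so the values are relative within a library, and a change in RNA per cell cannot be seen in them.

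Ribosomes are assembled in the nucleolus. RNA polymerase I transcribes a long precursor that holds the 18S, 5.8S and 28S ribosomal RNAs, snoRNPs of the box C/D class direct its 2'-O-methylation, and those of the box H/ACA class direct its pseudouridylation. Processing factors then cut and fold the precursor into a small and a large subunit, which leave for the cytoplasm. Cancer cells that grow fast often have large nucleoli, and the transcription factor MYC is a well known activator of many of these genes.

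VIM-AS1 itself stood at 2197, 2019 and 2763 normalized reads in the 3 overexpression libraries and 8.63, 1.22 and 5.53 in controls (8.80 ± 0.46 on the log2 scale, with the SE; adjusted p = 1.62e-05 by limma without a library term), in the direction of the labels. The markers of prostate luminal cells go in part against the name LNCaP. KLK3, which encodes prostate-specific antigen and is abundant in LNCaP cells, was listed at 0 in 5 of 6 libraries and at 1.92 in the other, and FOLH1 reached at most 3.84, while the keratin gene KRT8 was at 51008 to 99727. KLK2 and TMPRSS2 were not among the genes listed. Of 6 fibroblast markers, COL1A2 and LUM were listed at 0 in 5 of 6 libraries. The summed level of the fibroblast list was 1781 to 2548 with VIM-AS1 and 2875 to 3714 in the controls, led by COL1A1 and PDGFRB, and COL1A1, PDGFRB and DCN fell. Of 5 leukocyte markers 2, CD14 and CD68, were listed, and PTPRC, CD3E and LYZ were not. The sum of the 2 was 5.3 to 15.3 against 16.6 to 40.3. CD68 reached at most 3.84, the groups of CD14 overlapped, and neither gene was called by limma with the library term described below. The sum of 3 endothelial markers was 64.5 to 108.8 with VIM-AS1 against 33.2 to 64.7, ranges that just overlap, with PECAM1 at 0 in 5 of 6 libraries. Most of it was VWF, at 76.9, 97 and 53.2 against 35.5, 48.9 and 22.1, which rose (1.10 ± 0.25 on the log2 scale, adjusted p = 0.00436 by limma with the library term described next). The fibroblast and leukocyte sums were thus lower, and the endothelial sum mostly higher, in the group in which most of the ribosome genes were higher, and their part in the results was not tested. In such bulk samples fewer cells of a type and less RNA per cell cannot be told apart. The cells are called by their label below.

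Libraries held 14762893 to 19889745 reads, recovered from the deposited values. In both groups the third library differed from the others in the same way, a shift that ran with GC content. Limma was therefore fitted both without and with a term for the third libraries. A gene is said to have risen or fallen where its adjusted p is below 0.05 in the fit with that term. SE values are from the same fit, and the log2 fold changes are the same in both. The term was introduced because of the data, so its p-values may be too small. The labels do not say that replicates are separate cultures, so the tests cover the spread among these libraries alone, which may be technical.

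Most of the ribosome biogenesis genes were higher with VIM-AS1 overexpression. With the third-library term 37 of the 50 rose, POLR1D fell and 12 did not pass, while over all tested genes 11.5% were called higher and 7.94% lower. These genes are abundant, and among the 9758 genes with a mean of at least 100 normalized reads 23.0% were called higher and 9.0% lower. The log2 fold change was positive for 47 of the 50, against 48.0% of all tested genes and 62.7% of those with a mean of at least 100. Its median over the 50 was 0.58, against -0.02 over all tested genes and 0.11 over those with a mean of at least 100. In 22 genes every VIM-AS1 library lay above every control library, and in 1 gene below, where 9.5% and 10.3% of all tested genes, and 15.1% and 5.81% of those with a mean of at least 100, did so.

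None of the 50 passed without the term by limma, where 5 genes of all tested, or 0.0239%, did (0.041% of those with a mean of at least 100). The lowest adjusted p of the 50 was 0.0857, that of TSR1, and 24 of the 50 had an unadjusted p under 0.05, against 13.6% of all tested genes. Without the term edgeR and limma-voom on the recovered reads called 0 of the 50 as well, where each called 4 of all tested genes, or 0.0191%. DESeq2 without the term called 3 higher (DKC1, TSR1 and EBNA1BP2, with an adjusted p of 0.00499 for TSR1). In that fit 133 of all tested genes, or 0.636%, were called higher and 5277 had no adjusted p. Same-numbered libraries deviated together, and with the replicate number as a block limma called 42 of the 50 higher and POLR1D lower, where 15.8% and 10.8% of all tested genes, and 31.6% and 13.1% of those with a mean of at least 100, were called. The 5 genes gained by the block over the third-library term were POLR1C, NOP58, UTP20, NOC4L and GNL2. Leaving out the third library of either group took away most calls of the fit with the term: 8 were higher without VIM-AS1 replicate 3, where 0.674% of all tested genes were, and 7 without control replicate 3, where 0.607% were. POLR1D was called in neither. POLR1A, UBTF, DKC1, NAT10, TSR1, PES1 and EBNA1BP2 were called higher whichever of the 6 libraries was left out.

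**Figure D1:**
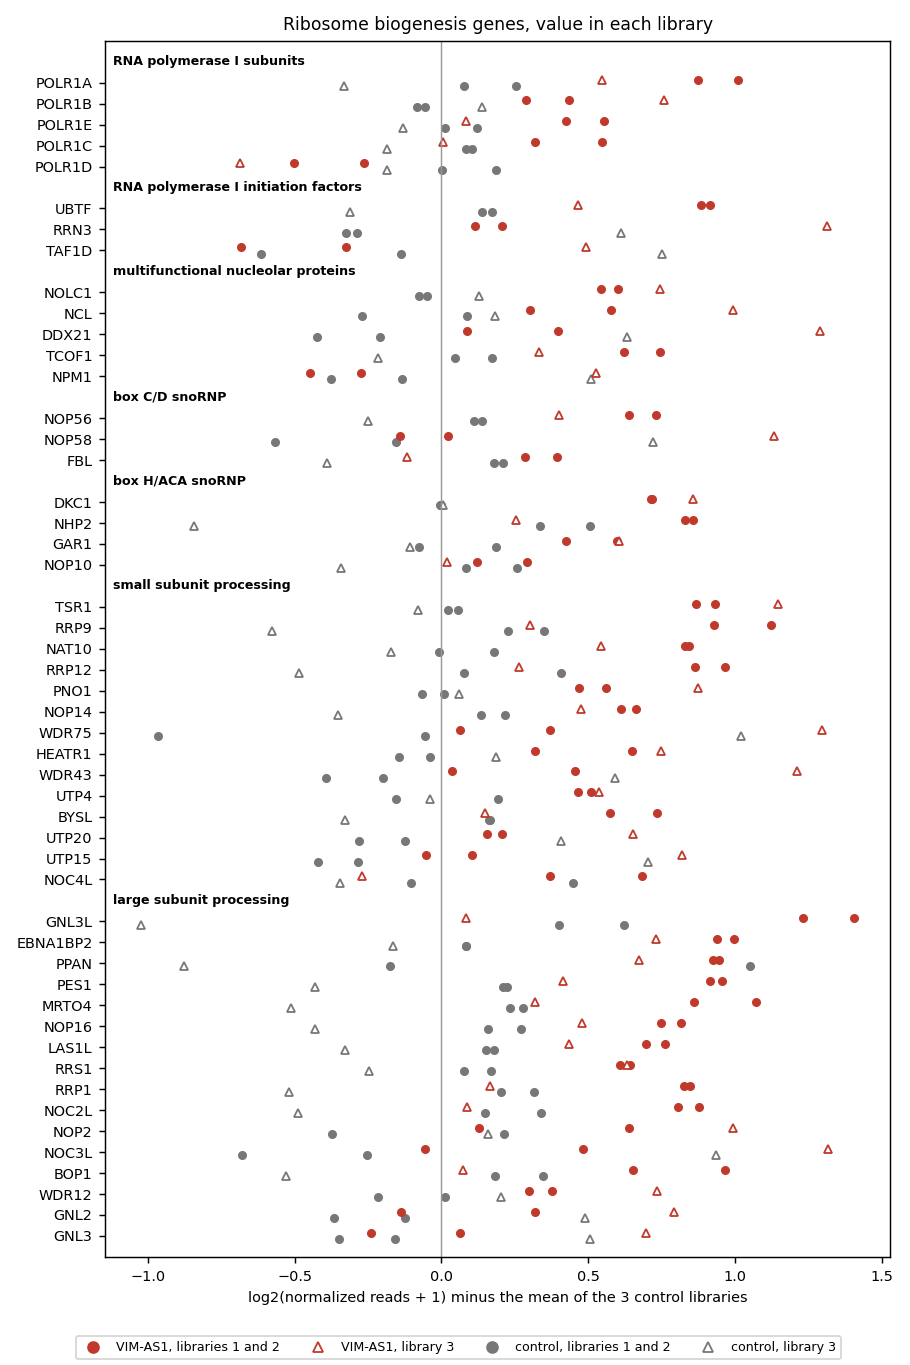
Value of each of the 50 genes in each library, as log2(normalized reads + 1) minus the mean of the 3 control libraries on that scale (x axis), ordered by role and by fold change (y axis). Red marks are VIM-AS1 libraries, grey marks are controls, and open triangles are the third library of each group. In 22 genes, TSR1 and EBNA1BP2 among them, all red marks lie right of all grey marks, and in POLR1D all lie left.

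The direction was the same with and without the third libraries. The median log2 fold change of the 50 was 0.54 over the first and second libraries and 0.64 over the third libraries, and over same-numbered libraries it was 0.49, 0.54 and 0.64. The sign was the same in both subsets for 49 of the 50, NPM1 being the exception, and 45 genes were positive and 2 negative in each of the 3 same-numbered pairs. How often the sign held in this way over all tested genes was not counted. The first and second libraries alone, with 4 libraries in the fit, gave 9 genes called higher, where 0.855% of all tested genes were. Both subsets share no library, and the Pearson r between their log2 fold changes was 0.74 over the 50 genes, given as a description, since the genes share libraries and depth.

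Levels in the third libraries followed GC content. In both groups AT-rich members such as NOC3L, with a transcript GC content of 37.8%, were higher in the third library than in the others, by 1.10 log2 units with VIM-AS1 and 1.40 in the controls. GC-rich members such as BOP1 (65.3%) were lower there, with differences of -0.74 and -0.79. Over the 50 genes the Pearson r of this shift with GC content was -0.85, and that of the log2 fold change with GC content was 0.39, both as descriptions. After each library's trends with GC content and length were removed, 41 of the 50 were higher and POLR1D lower with the term, where 10.9% of the 20915 genes with a GC value were called higher. FBL, NOP58, NOP10 and NOC4L were gained by this correction and no call was lost. Without the term 25 of the 50 were higher and none lower after the correction, where 5.67% of those genes were called higher. The median of the 50 after the correction was 0.51. For the corrected fits the share among genes with a mean of at least 100 was not counted. The same holds for the tests on recovered reads, the fits that left out a library, the first and second libraries alone and the unadjusted p.

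**Figure D2:**
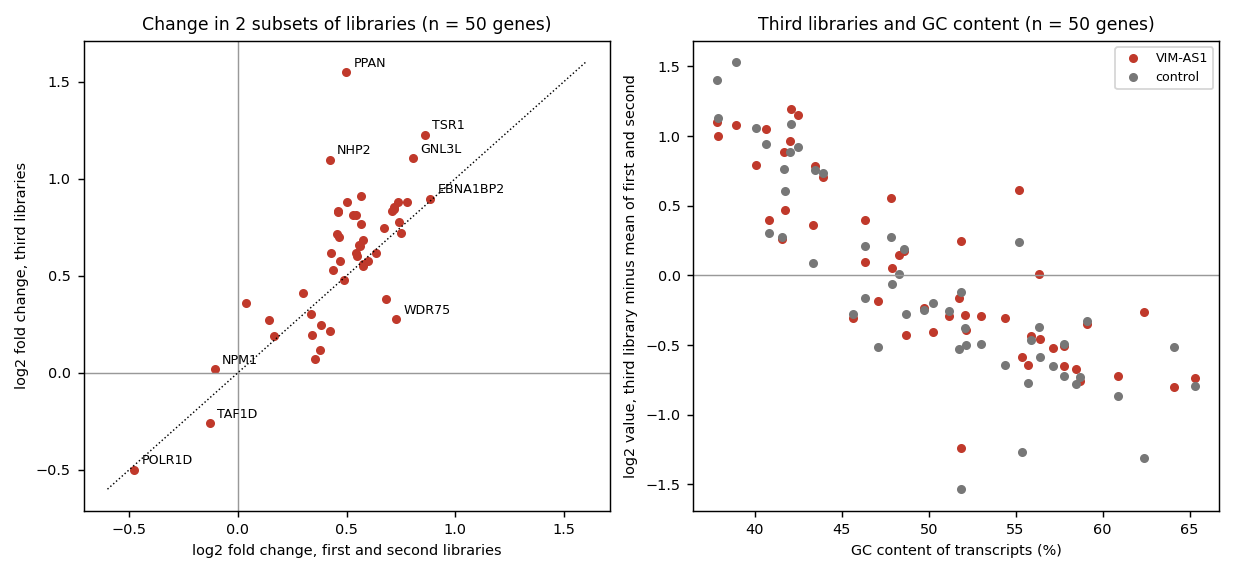
Left, log2 fold change of each of the 50 genes in the third libraries (y axis) against the first and second libraries (x axis), with the dotted line marking equal values. Right, log2 value of the third library minus the mean of the first and second in VIM-AS1 (red) and control (grey) libraries (y axis) against transcript GC content in % (x axis). The genes scatter on both sides of the line, with PPAN and NHP2 farthest above it and WDR75 farthest below. The shift of the third libraries falls from low to high GC content in both groups.

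Promoters of the 50 genes were searched for short words, because many members moved together. RefSeq promoter windows (GRCh38.p14) were matched for 43 of the 50, and the 250 bases before each start were read on both strands. CACGTG, the E-box bound by MYC and MAX, was in 6 of 43 members (14%), against 12% of 7616 genes with a mean of at least 100 and 7.73% of 27305 genes in the table. It was in 4 of the 31 matched members that rose (12.9%) and in 2 of the other 12 (16.7%). CCGGAAG, which holds the GGAA core bound by ETS factors and was chosen after the data were seen, was in 17 of 43 (39.5%), against 20.6% and 10.2%. CCGGAAG was in 13 of the 31 matched members that rose (41.9%) and in 4 of the other 12 (33.3%). MYC was at 5221, 5444 and 4881 normalized reads with VIM-AS1 and 5329, 5995 and 5490.1 in the controls and was called in neither fit (log2 fold change -0.11 ± 0.10, adjusted p = 0.509 with the term). The groups of MYC values overlapped.

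The stretches here show the copy nearest to the start in the 11 members that rose with a copy within 100 bases of it. They are 30 bases long, read 5′ to 3′ on the strand of the gene, and the capitals mark CCGGAAG or its reverse complement, which overlap in NOP16. A match is a description of the letters and not of binding. The starts are those of the RefSeq windows, and GENCODE lists exons, of the same or another gene, in these stretches of promoter. In POLR1B, UTP4, TSR1, NOP16, PPAN and EBNA1BP2 all 100 bases before the start used are exon bases. In RRN3, DDX21, GAR1, NOC2L and NOC3L 1 to 53 of them are. The stretches of TSR1 and EBNA1BP2 lie inside the gene spans given below. Whether these bases act as promoter was not tested.
POLR1B, chr2:112542411-112542440, plus strand: ctgcggccactaCTTCCGGcgtgtaccgag
RRN3, chr16:15094292-15094321, minus strand: tggcacgcgcaaCTTCCGGgacagaggctg
DDX21, chr10:68956098-68956127, plus strand: ttcctgcttcccCCGGAAGtgccttgctac
GAR1, chr4:109815470-109815499, plus strand: attgccgcagcaCTTCCGGgacgtcgtgct
UTP4, chr16:69132591-69132620, plus strand: gcgccaggagcaCTTCCGGggcagagcctg
TSR1, chr17:2336458-2336487, minus strand: gaCCGGAAGcgcttgtcctggcCCGGAAGc
NOP16, chr5:176388599-176388628, minus strand: cttgtgcacgcCTTCCGGAAGgagtttgtt
NOC2L, chr1:959257-959286, minus strand: cggcattctggggCCGGAAGtggggtgcac
NOC3L, chr10:94362970-94362999, minus strand: gtcccgccctcaCTTCCGGcggcggaggat
PPAN, chr19:10106332-10106361, plus strand: ggaagtgagctgcgcagcgCCGGAAGcggc
EBNA1BP2, chr1:43172301-43172330, minus strand: tatggtttgccgCCGGAAGcggaagtccca

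RNA polymerase I subunits moved in both directions. POLR1A and POLR1B, the large subunits that form the catalytic core, rose, as did POLR1E, while POLR1D fell and POLR1C, which like POLR1D is shared with RNA polymerase III, did not pass. POLR1A (ENSG00000068654, chromosome 2, 86020216 to 86106155, minus strand, GRCh38) was at 2177, 2392 and 1736 normalized reads with VIM-AS1 and at 1253, 1417 and 943 in the controls. Its lowest VIM-AS1 library was above its highest control (log2 fold change 0.81 ± 0.10, SE; by limma with the term, adjusted p = 2.4e-05). POLR1B stood at 755, 683 and 947 against 538, 528 and 616, again with no overlap (0.49 ± 0.11, adjusted p = 0.00325). For POLR1E the values were 612, 670.1 and 484 against 496, 461 and 416, and the third VIM-AS1 library lay among the controls (0.35 ± 0.11, adjusted p = 0.0347). POLR1C was at 911, 1069 and 734 against 786, 775 and 642, with an adjusted p of 0.0682, and its groups overlapped. It passed with the replicate block (adjusted p = 0.0142), and 18.2% of its exon bases are also exon of genes on the other strand.

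POLR1D was the member that fell. This gene (ENSG00000186184, chromosome 13, 27620742 to 27744237, plus strand, GRCh38) had 1259, 1486 and 1108 normalized reads with VIM-AS1 and 1784, 2029 and 1567 in the controls. All VIM-AS1 values were under all control values, and the difference was near the same in each same-numbered pair, at -0.50, -0.45 and -0.50 on the log2 scale (-0.48 ± 0.11, adjusted p = 0.00289).

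Of the 3 initiation factors 2 rose and TAF1D did not pass. UBTF (ENSG00000108312, chromosome 17, 44205033 to 44221626, minus strand, GRCh38), the HMG-box factor that keeps ribosomal DNA repeats open, was at 4270.1, 4182 and 3126 with VIM-AS1 and at 2555, 2493 and 1826 in the controls, with no overlap (log2 fold change 0.75 ± 0.10, by limma with the term, adjusted p = 3.12e-05). RRN3, which makes RNA polymerase I competent to start, was at 321, 302 and 694 against 228, 222 and 427. Within each pair of same-numbered libraries it was higher with VIM-AS1, but the third control lay above the first and second VIM-AS1 libraries (0.54 ± 0.12, adjusted p = 0.00406). TAF1D, a subunit of the promoter selectivity factor SL1, had 939, 731 and 1655 against 1068, 767 and 1980.1 and a log2 fold change of -0.17 ± 0.13 that did not pass (adjusted p = 0.394). TAF1D is also a host gene, with 8 snoRNA genes inside it on its strand.

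Of 5 multifunctional nucleolar proteins 4 rose, and the most abundant of them did not pass. NCL, which encodes nucleolin, had 6003, 4962 and 8018 normalized reads with VIM-AS1 and 4279, 3336 and 4571 in the controls (log2 fold change 0.62 ± 0.12, by limma with the term, adjusted p = 0.00113). NOLC1, a chaperone of snoRNPs, stood at 3929, 3781 and 4345 against 2502, 2459 and 2828 (0.63 ± 0.10), and TCOF1, the treacle protein that recruits UBTF and RNA polymerase I, at 6945, 6369 and 5215 against 4274, 4671 and 3564 (0.57 ± 0.10). In these 3 genes the groups did not overlap. DDX21, a nucleolar RNA helicase, was at 1939.6, 1565 and 3603 against 1277, 1099.5 and 2283, where the third control was above 2 VIM-AS1 libraries (0.59 ± 0.11, adjusted p = 0.000801). NPM1, the abundant histone and ribosome chaperone nucleophosmin, had 10196, 9033 and 17739.9 against 11232, 9505 and 17535, values that interleave (-0.07 ± 0.12, adjusted p = 0.764). GENCODE 29 lists 45 pseudogenes named after NPM1, so its reads may be split between copies. The same may hold for RRN3, NCL, NOP56, NHP2, PES1, NOC2L, GNL2 and GNL3L, with 1 to 3 such pseudogenes each.

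Of the 3 box C/D core genes NOP56 rose. It was at 4158, 4424 and 3525 normalized reads with VIM-AS1 and at 2882, 2939 and 2242 in the controls, without overlap (log2 fold change 0.59 ± 0.10, by limma with the term, adjusted p = 0.000335). FBL, the methyltransferase fibrillarin, had 8206, 8846 and 6208 against 7632, 7798 and 5139 and did not pass (0.19 ± 0.11, adjusted p = 0.252), although it has the highest level per kilobase of the 50, with 3362 normalized reads per kb of exon. NOP58, the partner of NOP56, did not pass with the term (adjusted p = 0.0655) and did with the block (adjusted p = 0.00862), at a log2 fold change of 0.34 ± 0.12. Its values were 471, 420.3 and 1017 with VIM-AS1 and 416, 313 and 765 in the controls, and the third library of each group was well above the others.

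Of 4 box H/ACA core genes 3 rose. DKC1 (ENSG00000130826, chromosome X, 154762742 to 154777689, plus strand, GRCh38), the pseudouridine synthase dyskerin that also stabilises telomerase RNA, stood at 2703, 2709 and 2987 normalized reads with VIM-AS1. Its controls were tightly grouped at 1647, 1643 and 1652, and the groups did not overlap (log2 fold change 0.76 ± 0.10, by limma with the term, adjusted p = 2.83e-05). GAR1 was at 485, 429 and 487 against 364, 303 and 297, without overlap (0.54 ± 0.13, adjusted p = 0.00483). For NHP2 the values were 2319.9, 2365 and 1556 against 1856, 1648 and 727, so that the third VIM-AS1 library was under the first and second controls (0.65 ± 0.12, adjusted p = 0.00101). Its log2 difference was 1.10 between the third libraries and 0.42 over the others, and 27.4% of its exon bases are also exon of RMND5B on the other strand. NOP10, the smallest subunit, had 1573, 1769 and 1466 against 1729, 1531 and 1141 and did not pass (0.14 ± 0.11, adjusted p = 0.399).

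**Figure D3:**
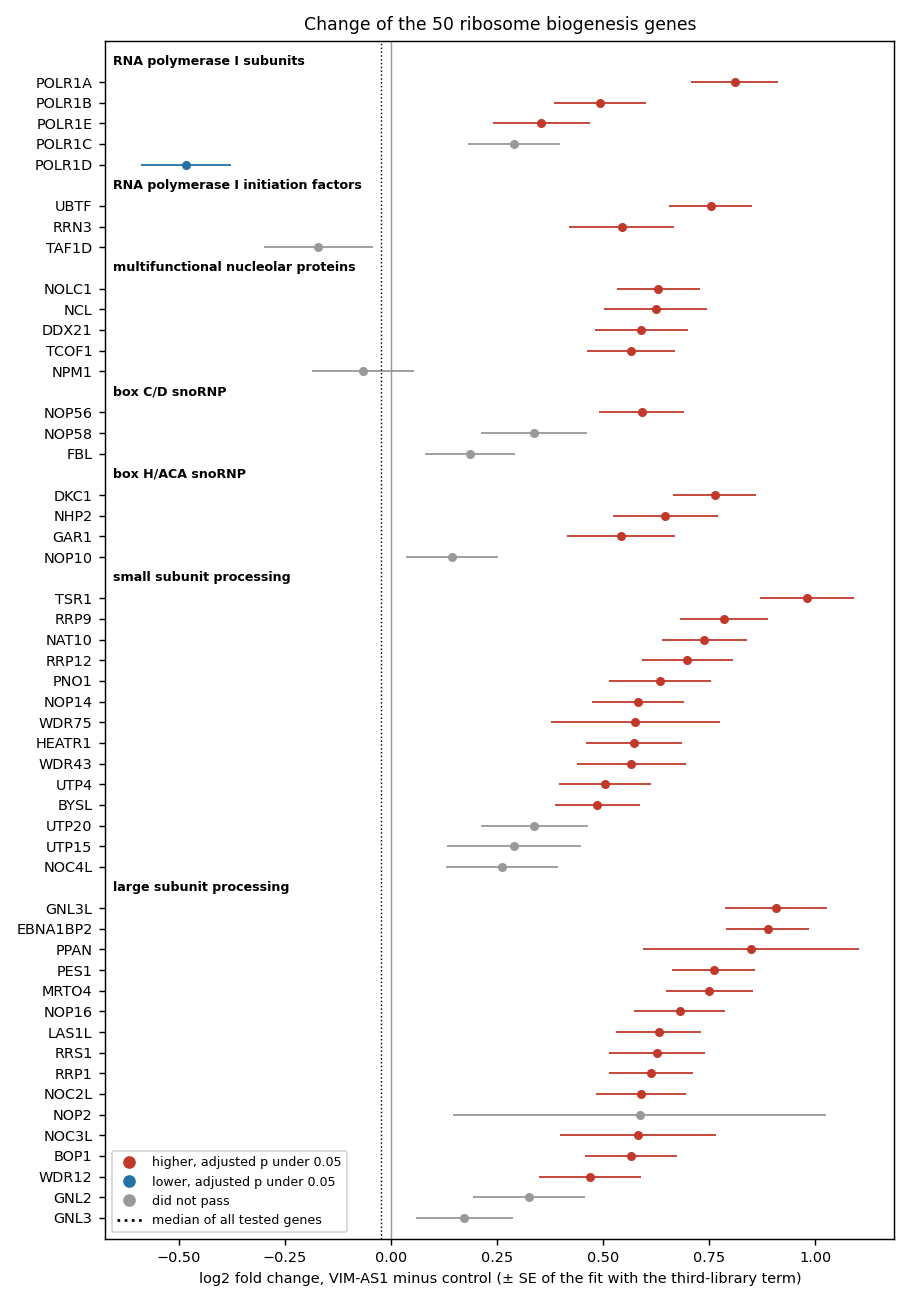
Log2 fold change of VIM-AS1 against control for each of the 50 genes (x axis), with bars of 1 SE from limma with the third-library term, ordered by role (y axis). Red genes were higher and the blue gene was lower at an adjusted p under 0.05, grey genes did not pass, and the dotted line is the median of all tested genes at -0.02. The values run from -0.48 for POLR1D to 0.98 for TSR1.

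Small subunit factors rose in 11 of 14 cases and none fell. TSR1 (ENSG00000167721, chromosome 17, 2322503 to 2337507, minus strand, GRCh38), which holds the late pre-40S particle in an inactive form, had the largest change of the 50. It was at 1050.4, 1098 and 1276 normalized reads with VIM-AS1 and at 585, 599 and 545 in the controls with no overlap (log2 fold change 0.98 ± 0.11, by limma with the term, adjusted p = 7.65e-06). TSR1 shares 20.8% of its exon bases with genes on the other strand. NAT10 (ENSG00000135372, chromosome 11, 34105602 to 34147670, plus strand, GRCh38), the acetyltransferase that makes N4-acetylcytidine in 18S rRNA, was at 3105, 3077 and 2528 against 1724, 1963 and 1537, with no overlap (0.74 ± 0.10, adjusted p = 5.09e-05). PNO1, a late 40S factor that shields the 3' end of 18S rRNA, was at 447, 476 and 592 against 324, 308 and 336 (0.63 ± 0.12), and NOP14 at 1363, 1316 and 1198 against 947, 1002 and 675 (0.58 ± 0.11), both without overlap.

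In the small subunit genes RRP9, RRP12 and BYSL the shift of the third libraries brought the groups together. RRP9, a protein of the U3 snoRNP, had 2012, 2301 and 1305 normalized reads with VIM-AS1 and 1236, 1349 and 709 in the controls (log2 fold change 0.78 ± 0.10, by limma with the term, adjusted p = 3.93e-05). RRP12, which acts in export of pre-ribosomes, stood at 2832, 3042 and 1869.6 against 1641, 2063 and 1113 (0.70 ± 0.11, adjusted p = 0.000154). In both genes the third library was the lowest of its group, and the third VIM-AS1 library overlapped the controls. BYSL, the bystin protein of the pre-40S particle, rose by 0.49 ± 0.10 with the same overlap, at 1766, 1973 and 1315 against 1328, 1330.4 and 944. NOC4L, the partner of NOP14, had the smallest difference of this group (0.26 ± 0.13) and did not pass with the term (adjusted p = 0.19), while it did with the block (adjusted p = 0.0231). Its values were 1587, 1972 and 1016 with VIM-AS1 and 1141, 1675 and 966 in the controls. The second control was above the first VIM-AS1 library, so the groups of NOC4L overlapped without the third libraries too.

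HEATR1, WDR43, WDR75, UTP4 and UTP15 belong to the UTP-A complex, which binds the nascent precursor first and is also needed for its transcription. Of these 5, 4 rose and UTP15 did not pass (adjusted p = 0.226), with a median log2 fold change of 0.57. HEATR1 was at 979, 779 and 1048 normalized reads with VIM-AS1 and 564, 607 and 709 in the controls, and 23.2% of its exon bases are also exon of LGALS8 on the other strand. UTP4 was at 2034, 2098 and 2138 against 1324, 1685 and 1433. Neither of these 2 genes overlapped between groups (log2 fold changes 0.57 ± 0.11 and 0.50 ± 0.11). WDR43 had 498, 372 and 841 against 317, 276 and 548, and WDR75 had 183, 148 and 349 against 136, 72.1 and 288, with the third library highest in each group of both. WDR43 rose by 0.57 ± 0.13 on the log2 scale (adjusted p = 0.00402). The call of WDR75 was marginal (0.58 ± 0.20, adjusted p = 0.0493 by limma with the term) and was lost with edgeR, with DESeq2, with limma-voom and with TMM scaling. UTP20, a large scaffold of the same early particle, did not pass with the term (0.34 ± 0.13, adjusted p = 0.0694) and did with the block (adjusted p = 0.021).

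Large subunit factors rose in 13 of 16 cases and none fell. EBNA1BP2 (ENSG00000117395, chromosome 1, 43164175 to 43270936, minus strand, GRCh38), a pre-60S factor named for its binding to a viral protein, had 3201, 3333 and 2774 normalized reads with VIM-AS1 and 1771, 1769 and 1490.4 in the controls. The groups were far apart and the 3 same-numbered pairs gave 0.85, 0.91 and 0.90 (log2 fold change 0.89 ± 0.10, by limma with the term, adjusted p = 5.68e-06). It shares 18.8% of its exon bases with CFAP57 on the other strand. MRTO4, a relative of the stalk protein P0 that holds its place on the maturing subunit, was at 4245, 4915 and 2917 against 2752, 2838 and 1639 (0.75 ± 0.10, adjusted p = 5.41e-05). NOP16 stood at 1377, 1442 and 1141 against 989.9, 915 and 607 (0.68 ± 0.11), RRS1, which helps to bring in the 5S particle, at 850.2, 832 and 845 against 575, 613 and 459.7 (0.63 ± 0.11), and LAS1L, the endonuclease that cuts the second internal spacer, at 2653, 2772 and 2213 against 1816, 1852 and 1302 (0.63 ± 0.10). In these 5 genes no VIM-AS1 library reached down to a control. NOP16 shares exon bases with ARL10 and HIGD2A on the other strand.

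PES1, BOP1 and WDR12 form the PeBoW complex, which is required for 5.8S and 28S rRNA maturation, and all 3 rose. PES1 (ENSG00000100029, chromosome 22, 30576625 to 30607083, minus strand, GRCh38) was at 4296, 4419.6 and 3038 normalized reads with VIM-AS1 and at 2636, 2662 and 1691 in the controls (log2 fold change 0.76 ± 0.10, by limma with the term, adjusted p = 3.13e-05). WDR12 was at 411, 433 and 556 against 337, 287 and 385 (0.47 ± 0.12, adjusted p = 0.00929). For both genes the groups did not overlap. BOP1 stood at 4045, 5027 and 2706 against 2919.9, 3266 and 1783, where the third VIM-AS1 library was under the first and second controls (0.56 ± 0.11, adjusted p = 0.00104).

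NOC2L and NOC3L, which pair on the pre-60S particle, and RRP1 rose with overlap of the groups. NOC2L had 7919.6, 8332 and 4812 normalized reads with VIM-AS1 and 5022, 5741 and 3234 in the controls (log2 fold change 0.59 ± 0.11, by limma with the term, adjusted p = 0.000571). RRP1 was at 2089, 2121 and 1322 against 1467, 1357 and 823 (0.61 ± 0.10, adjusted p = 0.000253), and in both genes the third libraries were the low ones. NOC3L, by contrast, was high in the third libraries, at 165, 114 and 296 against 98.8, 73.3 and 227 (0.58 ± 0.18, adjusted p = 0.0307), and its call was lost with DESeq2, limma-voom and library size scaling.

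Nucleolar GTPases differed among themselves in size of change. GNL3L was at 905, 1021 and 407 normalized reads with VIM-AS1 and at 508, 593 and 189 in the controls. The third library was the lowest of each group, and within each same-numbered pair VIM-AS1 was higher (log2 fold change 0.91 ± 0.12, by limma with the term, adjusted p = 3.93e-05). Its paralog GNL3, nucleostemin, had 763, 618 and 1182 against 654, 573 and 1037 and did not pass (0.17 ± 0.11, adjusted p = 0.326). GNL2 did not pass with the term (0.32 ± 0.13, adjusted p = 0.0941) and did with the block (adjusted p = 0.0133). Whether GNL3L and GNL3 differ from each other was not tested.

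Neighbouring genes complicate PPAN and NOP2. PPAN had 195, 198 and 164 normalized reads with VIM-AS1 and 213, 90.4 and 55.3 in the controls. The first control was the highest of all 6 libraries, so the same-numbered pairs gave -0.13, 1.12 and 1.55 (log2 fold change 0.85 ± 0.25, by limma with the term, adjusted p = 0.023), and the call was lost with DESeq2, with library size scaling and in 5 of the 6 fits that left out a library. It remained without control replicate 1. Of its exon bases 59.8% are shared with P2RY11 and a readthrough gene on the same strand. NOP2, the methyltransferase of 28S rRNA, stood at 15.8, 10.8 and 20.5 against 11.5, 7.33 and 11.1, the lowest level of the 50, and did not pass (0.59 ± 0.44, adjusted p = 0.397). GENCODE 29 lists 54.4% of its exon bases as exon of AC006064.6 on the same strand too. How the counting treated shared bases is not given in the sources used here, so the low level of NOP2 may not be its true abundance.

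Per kilobase of exon, the 50 genes spanned 2.74 (NOP2) to 3362 (FBL) normalized reads per kb, with a median of 310.2 against 20.5 over all tested genes. After FBL came NPM1 (3276 per kb) and NOP10 (2771 per kb), and none of these 3 passed the test with the term. After the GC and length correction FBL and NOP10 were called higher with the term, and NPM1 was not called. NHP2 (1156 per kb), MRTO4 (1140 per kb) and NOC2L (1055 per kb) followed, and these rose. SnoRNA genes, 36 in all, lie inside 10 of the 50 genes on the same strand, and 6 of those 10 rose, with a median log2 fold change of 0.58. Of the other 40 genes 31 rose, and their median was 0.58 as well. Exon bases were shared with a gene on the opposite strand in 19 of the 50, and made up at least 10% of the gene's exon bases in 8. The protocol names no kit or step for keeping strand, so reads in those parts cannot be told apart.

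**Figure D4:**
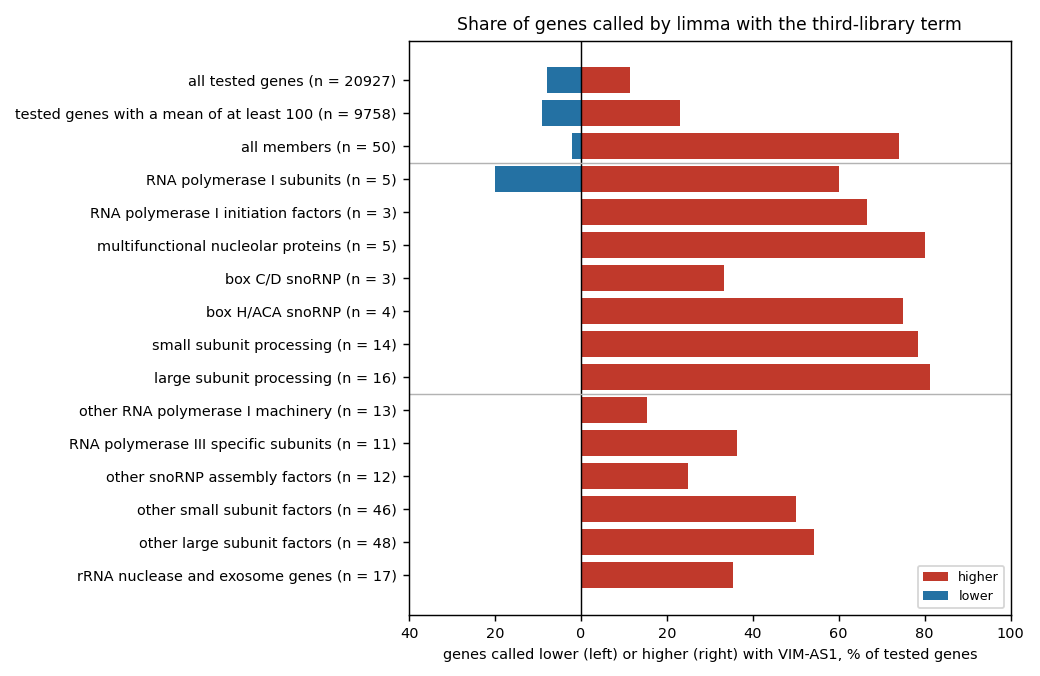
Share of tested genes called higher (red, to the right) or lower (blue, to the left) by limma with the third-library term, in % of the genes tested (x axis), for all tested genes, the 50 genes, their role groups and 6 lists of other genes of the pathway (y axis, with the number tested). For the 50 genes the share called higher is above the 11.5% of all tested genes and the 23.0% of those with a mean of at least 100, and among the role groups only the RNA polymerase I subunits hold a gene called lower, POLR1D.

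The rest of the pathway was read from 6 lists of 148 further genes, of which 147 were tested, and had a median log2 fold change of 0.33. Of the 147, 64 rose and none fell, to be read against the 11.5% called higher of all tested genes and the 23.0% (median 0.11) of those with a mean of at least 100. The block gave 81 higher and 4 lower. Among small subunit factors 23 of 46 rose, led by NOP9 (799 ± 124 normalized reads with VIM-AS1 against 366 ± 53.8 in the controls, mean ± SD, n = 3, log2 fold change 1.12 ± 0.11), NOL6 (0.83 ± 0.11) and the methyltransferase EMG1 (0.82 ± 0.10). Among large subunit factors 26 of 48 rose, led by URB2 (753 ± 31.7 against 408 ± 36.2, 0.88 ± 0.11), the methyltransferase FTSJ3 (0.87 ± 0.10) and the SUMO protease SENP3 (0.76 ± 0.11). Of 12 snoRNP assembly factors 3, a share near that of abundant genes, rose: NAF1 (0.63 ± 0.16) and the ATPases RUVBL1 (0.61 ± 0.11) and RUVBL2 (0.45 ± 0.10). Of 17 nuclease and exosome genes 6 rose, MPHOSPH6 (0.89 ± 0.16), EXOSC3 (0.50 ± 0.14) and ISG20L2 (0.46 ± 0.11) with the largest values. None of these 147 genes passed without the term. Without VIM-AS1 replicate 3 or control replicate 3 the fit with the term called 6 and 4 of them, where 0.674% and 0.607% of all tested genes were called higher.

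Other polymerase genes were read from the same lists. Of 13 other genes of the RNA polymerase I machinery, POLR2F (0.48 ± 0.13) and POLR2E (0.44 ± 0.11), subunits shared by all 3 nuclear polymerases, rose and 11 did not pass. This count lies between the shares of all and of abundant genes called higher, and the median of the 13, 0.13, is near the 0.11 of abundant genes. Of 11 subunits specific to RNA polymerase III, which transcribes 5S rRNA and tRNA genes, 4 rose, among them POLR3C (725 ± 48.9 against 433 ± 35.5, 0.74 ± 0.12), the catalytic subunit POLR3A (0.64 ± 0.12) and POLR3K (0.47 ± 0.12). The noncoding RNAs of the process could hardly be measured: of 23 listed, 4 passed the filter on low values, and none was called.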

How the data were processed

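RNA sequencing was done on 3 VIM-AS1 and 3 control libraries. The submitters' processing notes name fastp, HISAT2, featureCounts and the build hg38, without versions. The sources used here do not give the annotation or strand setting. The deposited values are a signal per gene: all values (100%, within 0.01 read) were whole multiples of 1 step per library, so whole reads were recovered. Up to a common scale, the reciprocals of the steps equal DESeq2's size factors. The step that divided the counts was not stated.

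Symbols, positions, exon lengths and GC content came from GENCODE 29 (GRCh38), matched for all 25969 identifiers. The test was limma 3.58.1 (R 4.3.3) with an intensity trend on log2(value + 1) over the 20927 genes whose mean reached 1, two-sided, with Benjamini-Hochberg adjustment over all of them and a threshold of 0.05, without and with a term for the third libraries. The design, written when the unit was open, named edgeR for raw counts and limma for normalized values. On this scale the fold change of a low gene is understated. Same-numbered libraries deviated together from their group means (Pearson r 0.32, 0.72 and 0.84 across 13175 genes), so a replicate block was fitted as well; the pairing comes from the data, not from the labels, and the 3 values are not independent. For a gene at 0 the count allows up to 3 reads, which is 2.37 to 3.67 normalized reads depending on the library, for counting error only. No pair of libraries within a group agreed within sampling noise (chi-square per degree of freedom 7.14 to 69.2).

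Alternatives were TMM and library size scaling, other filters, a pseudocount of 0.1, tests on the recovered reads (edgeR 4.0.16, DESeq2 1.42.0, limma-voom), the block with and without removal of splines of GC content and length (5 degrees of freedom each) from each library, each library left out, and a fold minimum of 0.5 in absolute log2 units. The GC correction without the block and the fit of the first and second libraries alone were added after seeing the data. The genes, role groups and lists were chosen with earlier results of these data known. Values in every library were given for genes past the threshold and that fold minimum, for the largest and smallest change of each role group and for RNA polymerase I subunits, with others named after their values were seen; from each further list the 3 largest called changes were named. Of the cell type markers, KLK2, TMPRSS2, PTPRC, CD3E and LYZ were looked up but are not among the 25969 genes listed. The reason for their absence is not given in the sources used here.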

Additional observations from a re-analysis of the deposited data

How the results depend on the processing

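With the third-library term the 38 calls among the 50 genes stayed between 33 and 43 under every scaling, filter, pseudocount, count-based test, block and GC correction run, and 33 also passed a fold minimum of 0.5 (absolute log2). Leaving out 1 library gave 7 to 40 calls, with 7 and 8 when the third library of either group was left out, and the first and second libraries alone gave 9; in these 3 fits 1.13%, 1.34% and 1.61% of all tested genes were called, against 19.4% with all libraries. Without the term 0 of the 50 were called, and 0 whichever library was left out, against 3 by DESeq2, 43 with the replicate block, 42 with the replicate block and the GC and length correction, and 25 with that correction alone. In these 4 fits 1.69%, 26.6%, 25.1% and 10.8% of all tested genes were called in either direction, against 0.0239% in the fit they alter. Without the term and with 1 library left out, 0.00478% to 0.0287% of all tested genes were called. For the 147 further genes the 64 calls became 36 with the fold minimum, 4 to 78 with 1 library left out and 7 in the first and second libraries alone. The median log2 fold change of the 50 genes was 0.51 to 0.64 over the settings run with the term and in the third libraries alone, and 0.494 without the term and control replicate 3. NPM1, which did not pass, went from -0.07 to 0.015 without control replicate 1 and ranged from -0.122 to 0.015 over the libraries left out; the cause was not tested. The block gained POLR1C, NOP58, UTP20, NOC4L and GNL2 and changed no other call of the fit with the term. VIM-AS1 kept its call in every alternative run. POLR1E, WDR75, NOC3L and PPAN were lost with DESeq2, and these and WDR12 with library size scaling. Without the third library of 1 group, the term takes up the remaining one, so 4 libraries carry the test.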
